A study of Mus musculus with 29 samples.

Results

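Basement membranes are thin sheets of extracellular matrix, and their core genes were followed in brown adipose tissue (BAT) and gastrocnemius skeletal muscle of mice under calorie restriction (CR), exercise training (EX) or both (CREX). The genes were chosen by name, with earlier results of these data known. They were the collagen chains Col4a1, Col4a2, Col15a1 and Col18a1, the laminin chains Lama2, Lama4, Lamb1 and Lamc1, the linker Nid1 and the proteoglycan Hspg2. These are 10 of the 24770 gene symbols in the deposited table. All 10 were found, and all 10 passed the filter on low counts in every comparison. Bulk RNA-seq libraries came from wild-type (WT) male C57BL/6J mice, with 3 control, 4 CR, 4 EX and 4 CREX libraries of BAT and 4 control, 3 CR, 4 EX and 3 CREX libraries of muscle. Control mice ate chow freely and stayed sedentary. CR mice received chow that was lowered step by step to a fixed share of free intake, EX mice ate freely and ran on a treadmill, and CREX mice had both treatments. Restriction and training began in young adulthood and ran over the same weeks, and every group was fasted for some hours before the tissues were taken, a day after the last run in the trained mice. The labels do not say which mice shared a cage, nor whether the BAT and muscle libraries of a number came from the same mouse.

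Collagen IV is the network-forming collagen of basement membranes, and its most widespread form is built from the chains of Col4a1 and Col4a2. Laminins are trimers of an alpha, a beta and a gamma chain that bind cells through integrins and dystroglycan. The alpha chain of Lama2 is typical of muscle fibres and peripheral nerve and its loss causes a congenital muscular dystrophy, while the alpha chain of Lama4 is typical of vessel walls and also surrounds adipocytes. Nidogen (Nid1) binds both laminin and collagen IV, and perlecan (Hspg2) carries heparan sulfate and joins the network. Collagens XV (Col15a1) and XVIII (Col18a1) form a small family of basement membrane collagens with interrupted triple helices. Brown adipocytes, muscle fibres, endothelial cells and pericytes each rest on or are wrapped by such a sheet.

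Col4a1 and Col4a2 lie head to head on mouse chromosome 8, and their promoters are shown because the levels of both genes moved together in these data. In GRCm38, Col4a1 runs on the minus strand at chr8:11198423-11312889 and Col4a2 on the plus strand at chr8:11312805-11449287. The RefSeq promoter windows (250 bases before and 50 bases after a start site, GRCm38) cover chr8:11312777-11313076 for Col4a1 and chr8:11312555-11312854 for Col4a2. The start sites of these windows (chr8:11312826 and chr8:11312805) lie 21 bases apart, and 78 bases at chr8:11312777-11312854 belong to both windows. The Col4a1 start site of its window thus lies inside the gene range given above. Those shared bases are in capitals, and each window reads 5′ to 3′ on the strand of its own gene, so that the capitals of the pair are reverse complements.
Col4a1: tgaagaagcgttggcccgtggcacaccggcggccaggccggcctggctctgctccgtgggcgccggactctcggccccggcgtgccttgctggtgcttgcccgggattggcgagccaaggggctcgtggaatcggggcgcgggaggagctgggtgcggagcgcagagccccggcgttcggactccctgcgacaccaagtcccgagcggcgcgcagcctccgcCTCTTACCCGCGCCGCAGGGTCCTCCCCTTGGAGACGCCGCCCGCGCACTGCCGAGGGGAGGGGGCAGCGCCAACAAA
Col4a2: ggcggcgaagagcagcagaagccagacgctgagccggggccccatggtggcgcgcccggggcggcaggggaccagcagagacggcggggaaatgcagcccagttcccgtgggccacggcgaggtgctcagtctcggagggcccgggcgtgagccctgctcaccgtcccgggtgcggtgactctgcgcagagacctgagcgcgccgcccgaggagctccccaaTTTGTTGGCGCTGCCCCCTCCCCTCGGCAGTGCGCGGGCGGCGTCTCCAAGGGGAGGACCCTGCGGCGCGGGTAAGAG

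The RefSeq promoter windows of Col15a1, the member with the largest change, and of Hspg2 are shown beside them, each on the plus strand of chromosome 4 (chr4:47207762-47208061 and chr4:137468553-137468852). The Col15a1 window lies inside the gene as annotated, which starts at chr4:47207655. It therefore holds no base before that start. Capitals mark the GC box letters GGGCGG or their reverse complement.
Col15a1: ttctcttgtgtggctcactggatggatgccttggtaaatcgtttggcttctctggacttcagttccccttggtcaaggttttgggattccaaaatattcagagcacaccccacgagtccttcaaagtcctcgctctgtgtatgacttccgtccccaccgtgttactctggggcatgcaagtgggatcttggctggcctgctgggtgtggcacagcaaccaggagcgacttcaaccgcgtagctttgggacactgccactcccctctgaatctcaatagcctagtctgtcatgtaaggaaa
Hspg2: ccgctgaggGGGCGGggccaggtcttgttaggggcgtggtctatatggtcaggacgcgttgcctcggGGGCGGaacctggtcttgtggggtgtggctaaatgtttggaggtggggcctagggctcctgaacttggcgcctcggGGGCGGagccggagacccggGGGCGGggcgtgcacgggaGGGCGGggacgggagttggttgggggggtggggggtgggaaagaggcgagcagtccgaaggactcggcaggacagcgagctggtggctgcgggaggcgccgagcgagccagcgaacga

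The windows were searched on both strands for GGGCGG, called GC box, for CCAAT, for the TATA box letters TATAAA, and for CCCTCCCC. In the RefSeq table, 35.7% of 32851 promoter windows of the same 300 bases held a GC box, 37.4% held CCAAT, 13.6% held TATAAA and 10.8% held CCCTCCCC. The table gave 9 windows for 8 of the 10 genes, with a pair for Col18a1 and none for Lama4 and Lamc1. Col4a1 had 1 GC box, 1 CCAAT and 1 CCCTCCCC, and Col4a2 had 3, 1 and 1. The Hspg2 window held 5 GC boxes, and that of Col15a1, which lies inside the annotated gene, held none of the letters searched. Bases before the annotated Col15a1 start were not searched. Base composition differed as well, with 74% G and C in the Col4a1 window, 70.3% in that of Hspg2 and 52.3% in that of Col15a1. None of the 9 windows held TATAAA, and no occurrences of different motifs overlapped. These matches describe letters and not bound sites.

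Libraries held 21047242 to 24919377 counts in BAT and 23050918 to 23425284 in muscle. Levels are given as CPM, the count of a gene as a share of all counts of its library after TMM scaling within the tissue. The tissues carried their own markers: 8 adipocyte markers had a summed level between 11940 and 17040 CPM in the BAT libraries and at most 259.5 CPM in those of muscle, and 11 muscle fibre markers summed to at least 111700 CPM in every muscle library. Muscle fibre RNA was also present in BAT, where the same 11 markers summed to between 4.87 and 6157 CPM and reached at least 981 CPM in all 4 CREX libraries. In muscle, 7 slow fibre markers ranged from 38.5 to 1997 CPM, with the lowest sums in CREX replicates 3 and 2 and EX replicate 1. No pair of libraries was alike enough to be a repeat of the same RNA. In bulk tissue, fewer cells of a type and less RNA per cell cannot be told apart.

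Collagen IV and perlecan were the most abundant members per length of transcript in control mice. On the scale of CPM per kilobase of merged exons, Col4a1 had a level of 31.9 ± 1.71 in BAT (SD, n = 3) and 13.8 ± 2.11 in muscle (SD, n = 4), and Col4a2 a level of 26.2 ± 1.87 and 12.3 ± 1.82. Hspg2 followed with 12.6 ± 0.976 in BAT and 9.17 ± 1.53 in muscle. In BAT the next levels were those of Lamb1 (7.45 ± 0.483), Lamc1 (6.85 ± 0.692) and Nid1 (6.53 ± 1.1), which overlapped within their SDs. Lama4 (4.35 ± 0.196) and Col15a1 (3.76 ± 0.262) came next, and Col18a1 (1.18 ± 0.244) and Lama2 (0.643 ± 0.056) were lowest. Muscle had Lamc1 (6.7 ± 0.762), Nid1 (5.16 ± 0.538) and Col15a1 (3.94 ± 0.212) in the middle and Lama4 (1.37 ± 0.123), Lamb1 (1.3 ± 0.0907) and Lama2 (1.23 ± 0.271) close together. Col18a1 was lowest in muscle at 0.787 ± 0.125 CPM per kilobase. The beta chain Lamb2, a paralogue of Lamb1, stood at 7.96 ± 0.495 in BAT and 14.3 ± 1.63 in muscle, so that in muscle it was far above Lamb1. The other collagen IV chains, Col4a3 to Col4a6, stayed at or below 0.316 CPM per kilobase in both tissues.

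**Figure D1:**
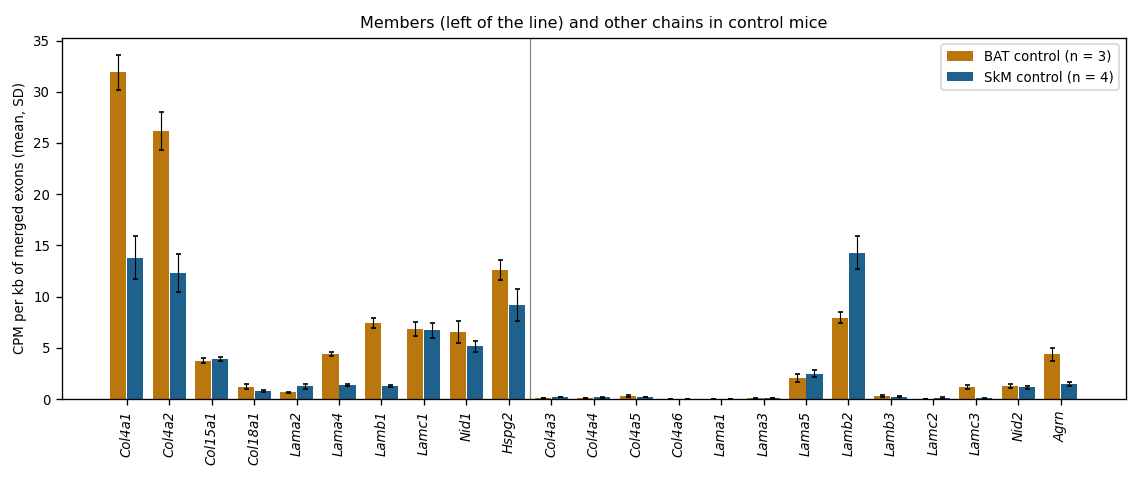
Bars show the mean level in control mice, in CPM per kilobase of merged exons, with SD as error bars, for BAT (n = 3) and muscle (n = 4). TMM scaling was done within each tissue, so the bars of BAT and muscle are not on a shared scale. The 10 genes described here stand left of the line and their paralogues and agrin (Agrn) right of it. Col4a1 at 31.9 and Col4a2 at 26.2 in BAT are the tallest bars, and Lamb2 at 14.3 is the tallest in muscle.

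Between the tissues of control mice, 4 members were higher in BAT and 1 was higher in muscle by edgeR, on a scale of shares of the library. Lamb1, a beta chain, differed most, with a log2 difference of 2.24 (SE 0.0897, edgeR adjusted p = 7.43e-10). Lama4 was 1.39 higher (SE 0.0944, edgeR adjusted p = 7.33e-08), Col4a1 0.94 higher (SE 0.118) and Col4a2 0.81 higher (SE 0.117). Lama2 was the member that was higher in muscle, by a log2 difference of -1.21 for BAT minus muscle (SE 0.157, edgeR adjusted p = 2.35e-05). Such differences were common among all genes: 29.8% of those tested were higher in BAT and 30.2% were higher in muscle.

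CR lowered 5 of the 10 members in BAT of sedentary mice (edgeR adjusted p under 0.05 and fold change above 1.5) and raised none. Of all 13323 genes tested, 6.86% fell and 3.87% rose by this rule. The genes that fell were both collagen IV chains, Col15a1, Lama2 and Hspg2. The median log2 fold change over the 10 members was -0.58, against 0.0045 over all genes. Col4a1 stood at 252, 233 and 229 CPM in the control mice and at 143, 129, 137 and 136 CPM in the CR mice. The groups did not overlap, and the highest CR library was far under the lowest control. The log2 fold change was -0.80 (SE 0.0643, edgeR adjusted p = 6.44e-05). Col4a2 had levels of 185, 174 and 160.5 CPM in control and 107, 98.9, 101 and 103 CPM in CR mice, again without overlap. It fell by 0.76 on the log2 scale (SE 0.0671, edgeR adjusted p = 1.12e-04).

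In trained mice neither collagen IV gene of BAT was called between the diets. Col4a1 had levels of 179, 181, 182 and 184 CPM in EX and 158, 139.8, 130.4 and 135 CPM in CREX mice. The EX libraries lay close together and all above the CREX libraries, at levels under every control library. The log2 difference of CREX minus EX was -0.37 (SE 0.0708, edgeR adjusted p = 0.014), which passed the p threshold and not the fold of 1.5. Col4a2 stood at 127, 146, 136 and 134 CPM in EX and at 99.15, 92.4, 85.75 and 95.15 CPM in CREX mice, without overlap. Its log2 difference of -0.55 (SE 0.0707, edgeR adjusted p = 0.00284) also missed the fold minimum. In all, 3 members fell in CREX against EX (Col15a1, Lama2 and Hspg2), and none rose, where 2.63% of 13251 genes fell and 1.86% rose. Fitted over all 15 BAT libraries with training as a term, Col4a1 differed by -0.57 between the diets (95% interval -0.719 to -0.429) and Col4a2 by -0.65 (-0.757 to -0.534, edgeR adjusted p = 5.78e-07). In this fit 4 members fell (Col4a2, Col15a1, Lama2 and Hspg2), against 7.74% of genes. Col4a1 was just under the fold minimum there, and it was called without the 3 libraries richest in muscle RNA (log2 -0.61, edgeR adjusted p = 0.00011) and without any single 1 of CREX replicates 1 and 2 and the EX libraries (log2 -0.62 to -0.59). Col18a1 (log2 -0.30, edgeR adjusted p = 0.0168), Lama4 (log2 -0.30, edgeR adjusted p = 0.00936) and Nid1 (log2 -0.29, edgeR adjusted p = 0.0131) passed the p threshold of this fit under the fold minimum.

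**Figure D2:**
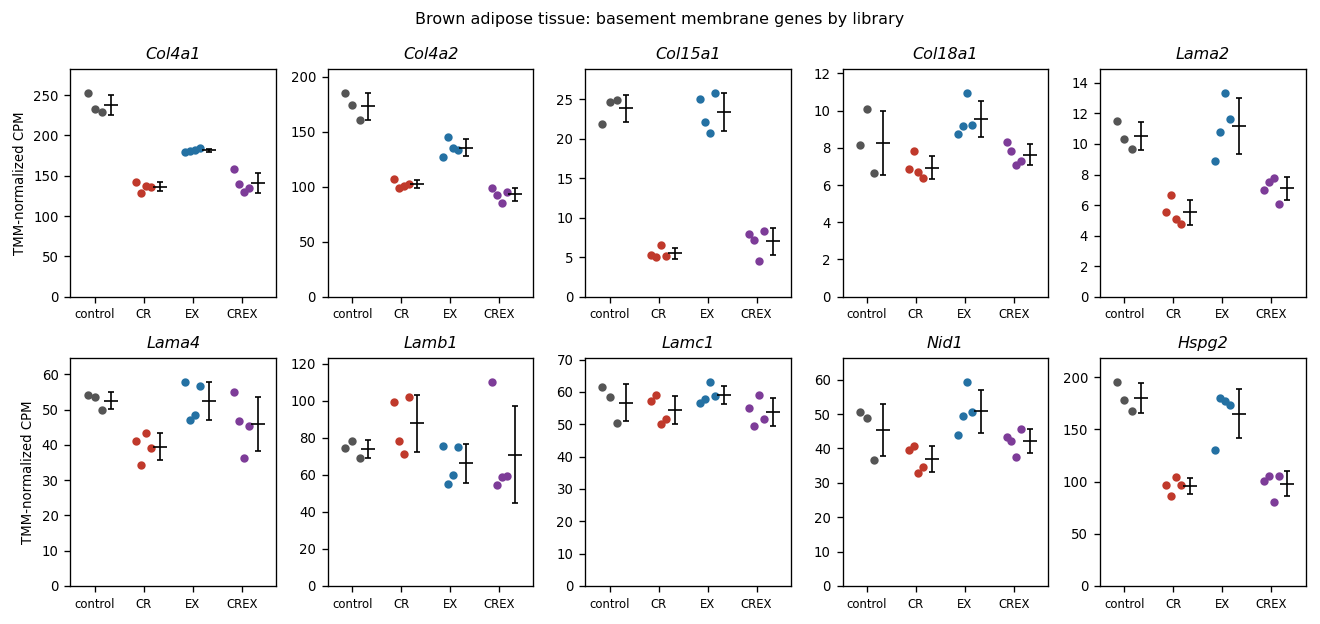
Each point is the TMM-normalized CPM of 1 BAT library, and the bars give the mean and SD of each group (control n = 3, the other groups n = 4). Col4a1, Col4a2, Col15a1, Lama2 and Hspg2 are lower in all CR libraries than in all control libraries, while Lamc1 and Col18a1 overlap. Each axis starts at 0.

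Collagen IV transcripts fell in muscle of both sedentary and trained mice. CR lowered 4 of the 10 members (Col4a1, Col4a2, Col15a1 and Hspg2), where 5.32% of 13173 genes fell and 4.27% rose, and CREX against EX lowered 3 (Col4a1, Col4a2 and Col15a1), where 5.17% of 13112 genes fell and 3.7% rose. No member rose in either. Col4a1 levels were 85.1, 94.75, 120 and 111 CPM in control and 39.05, 49 and 47.3 CPM in CR mice. No CR library came near the control range, and the log2 fold change was -1.18 (SE 0.143, edgeR adjusted p = 8.52e-04). Col4a2 went from 66.7, 77.4, 94.3 and 87.6 CPM in control to 31.9, 41.65 and 43.3 CPM in CR mice, a log2 fold change of -1.06 (SE 0.148, edgeR adjusted p = 0.0017). In the trained mice Col4a1 stood at 98.5, 83.15, 80.2 and 76 CPM in EX and at 53.9, 34.2 and 44.45 CPM in CREX mice. Col4a2 stood at 78.05, 61.8, 66.2 and 63.3 CPM in EX and at 46.3, 26.1 and 33.7 CPM in CREX mice. Neither gene overlapped between these groups, and their log2 differences were -0.93 (SE 0.162, edgeR adjusted p = 0.0103) and -0.93 (SE 0.184, edgeR adjusted p = 0.0162). The Col4a2 call was lost without CREX replicate 3 (log2 -0.90, edgeR adjusted p = 0.0551). With the slow fibre score as a covariate the log2 differences of Col4a1 and Col4a2 in CREX against EX were -0.89 (edgeR adjusted p = 0.0896) and -0.83 (edgeR adjusted p = 0.141), and neither was called. Without the 3 libraries poor in slow fibre RNA they were -0.57 and -0.46, again not called, with 1 CREX library left that is assumed to vary like the EX libraries.

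**Figure D3:**
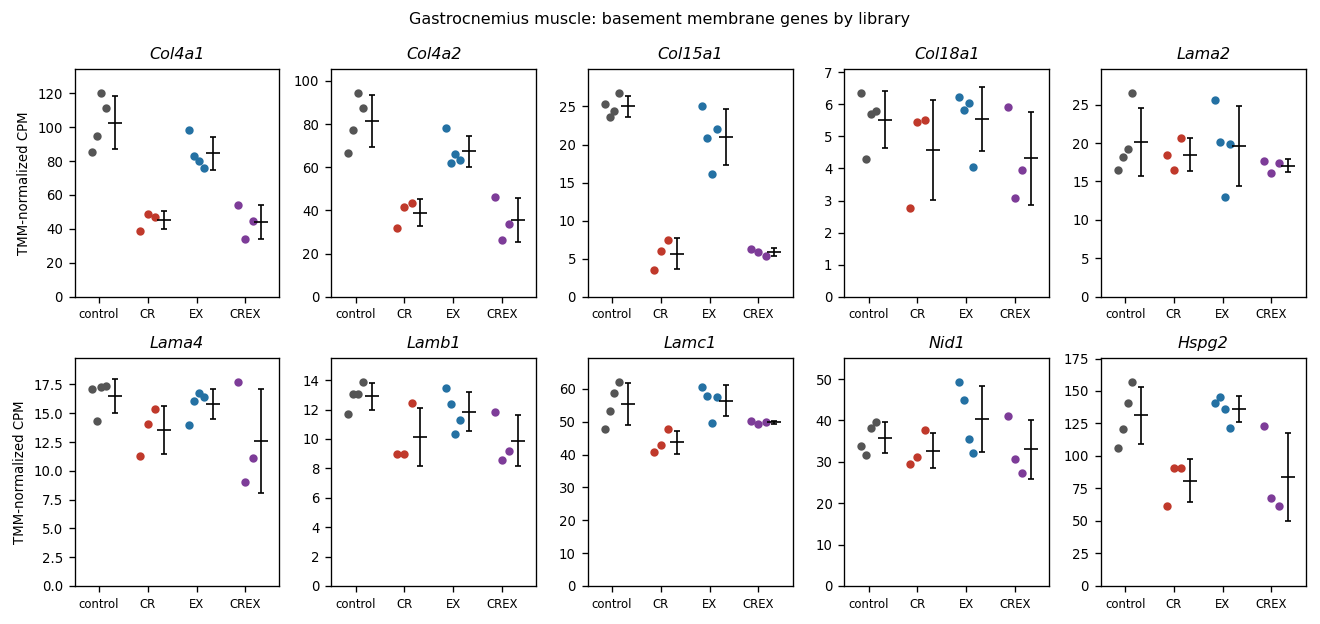
Each point is the TMM-normalized CPM of 1 gastrocnemius library, and the bars give the mean and SD of each group (control and EX n = 4, CR and CREX n = 3). Col4a1, Col4a2 and Col15a1 are lower in all restricted libraries than in all freely fed libraries, and Lama2 overlaps between all groups. Each axis starts at 0.

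Col15a1 had the largest fold change of the 10 members in each diet comparison. In BAT it stood at 21.9, 24.7 and 24.9 CPM in control and at 5.25, 5.01, 6.59 and 5.11 CPM in CR mice. All CR libraries were several-fold under all control libraries (4.33-fold lower, log2 fold change -2.12, SE 0.112, edgeR adjusted p = 3.81e-06). Trained mice had 25.03, 22.1, 20.8 and 25.8 CPM without restriction and 7.94, 7.23, 4.54 and 8.29 CPM with it, a 3.35-fold lower level (log2 -1.75, SE 0.17, edgeR adjusted p = 0.00108). Muscle levels, scaled within muscle, read in a similar range. The joint fit of control libraries gave a log2 difference of -0.34 for BAT minus muscle (edgeR adjusted p = 0.00455), under the fold minimum. Control muscle held 25.3, 23.6, 24.4 and 26.7 CPM of Col15a1 and CR muscle 3.51, 6.05 and 7.45 CPM, which is 4.39-fold lower (log2 -2.13, SE 0.2, edgeR adjusted p = 2.47e-04). EX muscle held 25.02, 20.8, 16.2 and 22.03 CPM and CREX muscle 6.32, 5.91 and 5.35 CPM, which is 3.58-fold lower (log2 -1.84, SE 0.155, edgeR adjusted p = 6e-04). In neither tissue did a restricted library overlap with a freely fed library. Col15a1 was called in all 4 diet comparisons under every alternative run, including the covariates for muscle fibre and slow fibre RNA and the fits without the libraries rich or poor in them.

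Its relative Col18a1, the source of the endostatin fragment, was not called in any comparison with all libraries. Levels in BAT ran from 6.64 to 10.06 CPM in control and from 6.36 to 7.81 CPM in CR mice, which overlap, with a log2 difference of -0.26 (95% interval -0.579 to 0.0694). CREX minus EX was -0.33 in BAT (95% interval -0.562 to -0.0917, edgeR adjusted p = 0.0861). In muscle the differences were -0.27 (95% interval -0.781 to 0.245) and -0.36 (95% interval -0.898 to 0.173), and the latter was -0.65 and called without CREX replicate 1 (edgeR adjusted p = 0.0379). With the slow fibre score as a covariate it was -0.14. Without the 3 libraries poor in slow fibre RNA it was 0.15, but CREX replicate 1 was then the only CREX library left. The ratio of Col18a1 to Col15a1 within a library, which does not depend on depth or scaling, was therefore higher under restriction. It was 3.69-fold higher in CR and 2.74-fold higher in CREX mice in BAT, and 3.68-fold and 2.70-fold higher in muscle. In each of the 4 comparisons the exact two-sided permutation test gave p = 0.0286, the smallest that groups of these sizes allow, and p = 0.0762 after adjustment over 16 ratio tests. None of the 16 passed 0.05 after adjustment.

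Perlecan (Hspg2) followed collagen IV in direction. In BAT its level was 195, 178 and 167 CPM in control and 97, 85.9, 104 and 96.4 CPM in CR mice. The groups were well apart, with a log2 fold change of -0.91 (SE 0.0799, edgeR adjusted p = 1.12e-04). EX mice had 130.3, 179.6, 177 and 173 CPM and CREX mice 101, 105, 80.1 and 105 CPM, so that EX replicate 1 was the nearest to the CREX libraries. The log2 difference was -0.76 (SE 0.122, edgeR adjusted p = 0.00671), and without the 3 BAT libraries richest in muscle RNA it was -0.55 (edgeR adjusted p = 0.0573). Muscle Hspg2 stood at 106, 121, 140.5 and 157 CPM in control and at 61.6, 90.85 and 90.5 CPM in CR mice, a log2 fold change of -0.69 (SE 0.171, edgeR adjusted p = 0.0241). This call was lost without CR replicate 1 (log2 -0.54) or without control replicate 2, 3 or 4 (edgeR adjusted p = 0.0503, 0.0735 and 0.0533). In trained mice the muscle levels were 141, 145, 136 and 122 CPM in EX and 123, 67.6 and 61.15 CPM in CREX mice. CREX replicate 1 lay inside the EX range, and the log2 difference of -0.70 (95% interval -1.21 to -0.182) had an edgeR adjusted p of 0.0723. Without that library the difference was -1.08 (edgeR adjusted p = 4.61e-05), and DESeq2 on all libraries called the gene (DESeq2 adjusted p = 0.0165), as did edgeR in a fit on all groups (edgeR adjusted p = 0.031). With the slow fibre score as a covariate the difference was -0.38 and not called. Without the 3 libraries poor in slow fibre RNA it was -0.13, but CREX replicate 1 was then the only CREX library left.

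**Figure D4:**
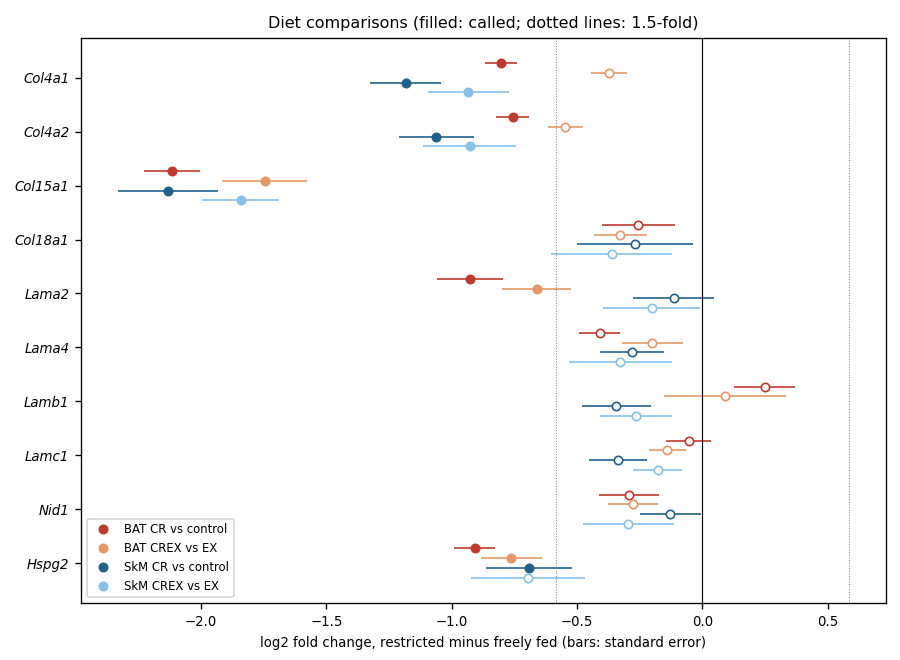
Points give the log2 fold change of restricted against freely fed mice and bars the standard error, for the 4 diet comparisons. Filled points were called at an edgeR adjusted p under 0.05 and a fold above 1.5, and dotted lines mark that fold. Col15a1 lies between -2.13 and -1.75 in all 4, and Lama2 is called in BAT and not in muscle.

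Of the 4 laminin chains, Lama2 was the only one called in a diet comparison with all libraries. In BAT its level was 11.5, 10.3 and 9.70 CPM in control and 5.56, 6.67, 5.07 and 4.77 CPM in CR mice. No library overlapped, and the log2 fold change was -0.93 (SE 0.133, edgeR adjusted p = 0.00124). EX mice had 8.91, 10.75, 13.3 and 11.6 CPM and CREX mice 6.99, 7.49, 7.80 and 6.08 CPM (log2 -0.66, SE 0.137, edgeR adjusted p = 0.0193). This second difference was not called without CREX replicate 1 or 4 (edgeR adjusted p = 0.0539 and 0.0577), without EX replicate 3 (log2 -0.56) or without the 3 libraries richest in muscle RNA (log2 -0.59, edgeR adjusted p = 0.105). Muscle Lama2, whose product is the main alpha chain around muscle fibres, was at 16.5, 18.15, 19.2 and 26.5 CPM in control and at 18.5, 16.4 and 20.6 CPM in CR mice. These ranges overlap, and the log2 difference was -0.11 (95% interval -0.473 to 0.245). For CREX minus EX it was -0.20 (95% interval -0.638 to 0.233).

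Lama4, the alpha chain of vessel walls, was at 54.15, 53.65 and 49.8 CPM in control BAT and at 41.2, 34.3, 43.5 and 39.1 CPM in CR BAT. The groups did not overlap, but the log2 difference of -0.41 (SE 0.082, edgeR adjusted p = 0.00654) was under the fold minimum. For CREX minus EX it was -0.20 (95% interval -0.467 to 0.0686) in BAT, and in muscle the differences were -0.28 (95% interval -0.565 to 0.00196) in sedentary and -0.33 (95% interval -0.791 to 0.137) in trained mice. Without muscle CREX replicate 1 the last of these was -0.65 and called (edgeR adjusted p = 0.00379). Without the 3 libraries poor in slow fibre RNA it was 0.10, but that same replicate was then the only CREX library left. Lamb1 was the member with a value above 0 in BAT under restriction, with log2 differences of 0.25 (95% interval -0.0242 to 0.52) in sedentary and 0.09 (95% interval -0.472 to 0.652) in trained mice. The width of the latter came with CREX replicate 1, at 109.9 CPM against 54.5, 59.04 and 59.5 CPM in the other CREX libraries. Without it the difference was -0.20, a sign opposite to that over all libraries. In muscle Lamb1 differed by -0.34 (95% interval -0.647 to -0.0401, edgeR adjusted p = 0.124) and -0.26 (95% interval -0.583 to 0.055). The gamma chain Lamc1 gave log2 differences of -0.05 (95% interval -0.25 to 0.14) and -0.14 (95% interval -0.305 to 0.0239) in BAT. In muscle they were -0.34 (95% interval -0.596 to -0.08, edgeR adjusted p = 0.0813) and -0.18 (95% interval -0.396 to 0.0377). Over all 14 muscle libraries with training as a term, Lamb1 (log2 -0.31, edgeR adjusted p = 0.0221) and Lamc1 (log2 -0.26, edgeR adjusted p = 0.0146) passed the p threshold under the fold minimum. The same fit called Col4a1, Col4a2, Col15a1 and Hspg2, against 7.9% of 13610 genes that fell, and the Hspg2 call was lost without the libraries poor in slow fibre RNA (log2 -0.53, under the fold minimum). The linker Nid1 was not called either: its log2 differences ran from -0.30 (muscle CREX minus EX, 95% interval -0.708 to 0.118) to -0.13 (muscle CR minus control, 95% interval -0.399 to 0.144).

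Related chains were compared as ratios of counts within a library. The Col4a1 to Col4a2 ratio ranged only from 1.24 to 1.59 over the 15 BAT libraries and from 1.09 to 1.35 over the 14 muscle libraries. Its log2 value was 0.17 higher in CREX than in EX BAT and 0.12 lower in CR than in control muscle (difference -0.12), each with an exact two-sided permutation p of 0.0286 and an adjusted p of 0.0762. The Lama4 to Lama2 ratio had a median of 5.2 in BAT and 0.794 in muscle, and that of Lamb1 to Lamc1 a median of 1.32 in BAT and 0.221 in muscle. The ranges of these laminin ratios did not overlap between the tissues, as the plot of ratios shows. Over the diets, the log2 ratio of Lama4 to Lama2 differed by 0.52 in CR and 0.44 in CREX BAT (exact permutation p = 0.114 and 0.143), and by -0.19 and -0.22 in muscle (exact permutation p = 0.343 and 0.543).

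**Figure D5:**
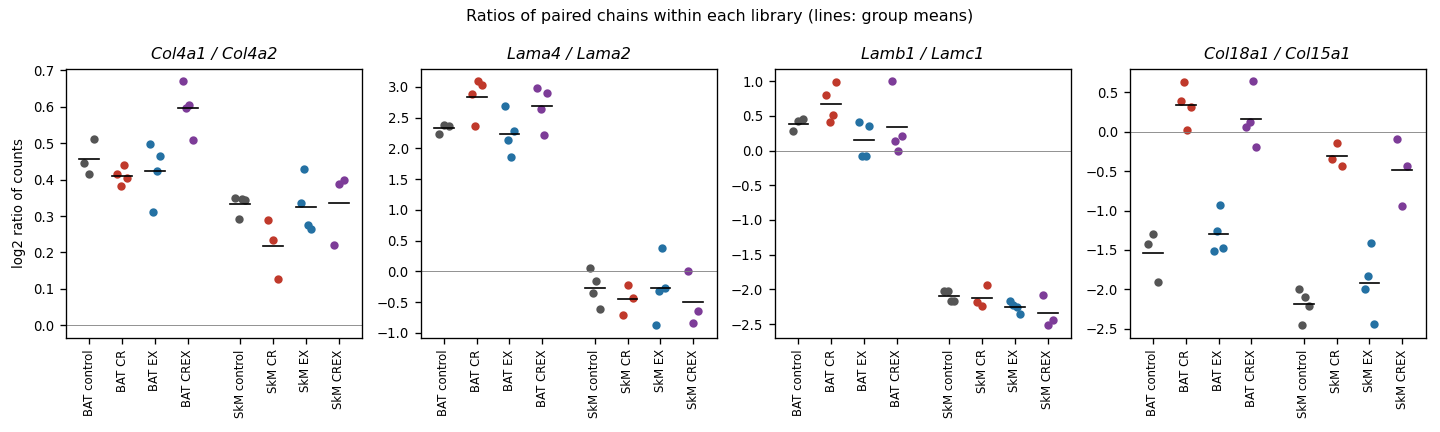
Each point is the log2 ratio of the counts of a pair of genes within 1 library, with lines at the group means. The Col18a1 to Col15a1 ratio is higher in restricted than in freely fed mice of both tissues (3.69-fold in CR BAT and 3.68-fold in CR muscle), and the Col4a1 to Col4a2 ratio stays between 1.09 and 1.59 in all libraries.

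None of the 10 members was called for training alone by the same rule. In BAT, EX against control called no gene at all of 13407 (0%), with 972 genes and 2 members (both collagen IV chains) at an unadjusted p under 0.05, and DESeq2 called no member either. The largest member difference was that of Col4a1 in BAT, whose EX libraries, given above, all lay under the control libraries (log2 -0.38, SE 0.0639, edgeR adjusted p = 0.225). In muscle, EX against control called 0.0775% of genes and no member. There 3 members had an unadjusted edgeR p under 0.05, against 6.85% of all genes. Col4a1 differed by -0.29 in that comparison (95% interval -0.54 to -0.0328, edgeR adjusted p = 0.664). Training on top of restriction (CREX against CR) called no member in BAT, where 0.00763% of genes were called, and none in muscle, where 0% were called, although 1001 and 477 genes, with 1 member (Lama2) and 0 members among them, had an unadjusted p under 0.05. For CREX minus CR, Col15a1 differed by 0.35 in BAT (95% interval -0.0547 to 0.755) and by 0.04 in muscle (95% interval -0.566 to 0.642). Over both diets the training term called no member in BAT (0% of genes called) or muscle (0.0294%). For this term 4 members in BAT and 0 in muscle had an unadjusted edgeR p under 0.05. Among all genes these shares were 10.8% and 6.39%. DESeq2 called no member for this term or in CREX against CR. The interaction of diet and training passed for no member in either tissue by edgeR (0% of genes in both, with 800 genes in BAT and 669 in muscle at an unadjusted p under 0.05). For Col4a1 in BAT it was 0.43 (SE 0.0905, edgeR adjusted p = 0.513), and DESeq2 fitted on all groups called it (DESeq2 adjusted p = 0.014).

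The diet differences of the tissues were compared directly as well. In sedentary mice Lama2 was the only member whose diet difference differed between BAT and muscle, by -0.81 on the log2 scale for BAT minus muscle (SE 0.22, edgeR adjusted p = 0.0359). Among all genes 7.58% differed in either direction, a share near that of 1 of 10 members. This call was lost without any of 10 of the 14 libraries (edgeR adjusted p from 0.0517 to 0.0958), and DESeq2 called Lama2 and also Lamb1, whose diet difference was 0.63 higher in BAT. For Col15a1 the difference between tissues was 0.03 (95% interval -0.488 to 0.543). In trained mice no member passed by edgeR, against 5.58% of genes, and Col4a1 was nearest with 0.57 (95% interval 0.197 to 0.945, edgeR adjusted p = 0.0686). DESeq2 called that difference (DESeq2 adjusted p = 0.0181), and without muscle CREX replicate 1 edgeR called it together with Col4a2.

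Other basement membrane genes were counted over whole lists, and outside the paralogous chains the genes named are called ones with the smallest p. Of all genes, 6.86% fell in BAT under CR and 2.63% in CREX against EX. In muscle 5.32% and 5.17% fell. Of the paralogous chains and agrin, 6 of 10 tested fell in BAT under CR, with Lamc3 (log2 -1.04, edgeR adjusted p = 9.56e-04) and Nid2 (log2 -0.84, edgeR adjusted p = 0.00396) the most certain, followed by Col4a4 (log2 -1.41) and Col4a3 (log2 -1.23). In CREX against EX 3 of 10 fell in BAT (Nid2, Lamc3 and Col4a3). In muscle 0 of 11 fell in either diet comparison by edgeR or DESeq2. An unadjusted edgeR p under 0.05 was held by 1 of 11 in each, against 29.3% and 32.3% of all genes. Nid2 differed in muscle by -0.32 (edgeR adjusted p = 0.327) and -0.55 (edgeR adjusted p = 0.105). Col4a3 and Col4a4 are low in these tissues, at 0.136 and 0.118 CPM per kilobase in control BAT.

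Proteins that associate with basement membranes moved in both directions. In BAT under CR, 4 of 14 fell and 2 rose, where 6.86% of all genes fell and 3.87% rose. In muscle 2 of 16 fell and 3 rose, where 5.32% of all genes fell and 4.27% rose. The calcium-binding glycoprotein Smoc2 fell in BAT (log2 -1.24, edgeR adjusted p = 2.28e-05) and its relative Smoc1 rose there (log2 1.08, edgeR adjusted p = 3.53e-04). Npnt, an integrin ligand, fell in BAT (log2 -2.72, edgeR adjusted p = 2.22e-04) and in muscle (log2 -1.64, edgeR adjusted p = 0.00112). Sparc, which binds collagen IV, fell in all 4 diet comparisons, with log2 values of -0.69 and -0.71 in BAT and -0.89 and -0.91 in muscle. Spock2 rose in muscle in sedentary (log2 1.72, edgeR adjusted p = 0.0013) and trained mice (log2 1.83, edgeR adjusted p = 0.00888). Among receptors, Itga6, the alpha chain of laminin-binding integrins, fell in all 4 diet comparisons, with log2 values of -1.39 and -0.97 in BAT and -1.01 and -1.39 in muscle. Only 1 other of 19 receptors, Ddr2, was called in BAT, in each diet comparison. No other was called in muscle by edgeR, while DESeq2 called 3 of 19 in trained muscle. The edgeR count of 1 of 19 in muscle is near the share of all genes that fell (5.32% in CR and 5.17% in CREX).

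Enzymes that fold and crosslink collagen IV were counted next. In BAT under CR 3 of 17 fell and 1 rose, and in muscle 3 of 17 fell. Of all genes, 6.86% fell and 3.87% rose in BAT, and 5.32% fell and 4.27% rose in muscle. In CREX against EX, 2.63% of all genes fell and 1.86% rose in BAT, and 5.17% fell and 3.7% rose in muscle. Pxdn, the peroxidase that makes the sulfilimine crosslinks of collagen IV, fell by 1.05 on the log2 scale in BAT (log2 -1.05, edgeR adjusted p = 1.64e-04) and by 0.78 in muscle (log2 -0.78, edgeR adjusted p = 0.00535). Loxl2, a lysyl oxidase, fell in both tissues (log2 -1.16 and -0.85), and so did the collagen chaperone Serpinh1 (log2 -0.60 and -0.71). In trained mice edgeR called 0 of 17 in BAT, where DESeq2 called 2, and 2 of 17 fell in muscle. In BAT 4 of 17 had an unadjusted edgeR p under 0.05, against 25.6% of all genes. Of proteases and their inhibitors, 10 of 16 fell and 2 rose in BAT under CR, whereas in CREX against EX 1 of 15 fell and 1 rose by edgeR and DESeq2 called 6. Mmp14, a membrane-bound collagenase, fell by 1.43 (log2 -1.43, edgeR adjusted p = 3.13e-04) and Mmp2 by 0.79 (log2 -0.79, edgeR adjusted p = 3.83e-04). In muscle 3 of 13 fell, Mmp2 among them (log2 -0.83, edgeR adjusted p = 0.00135), and the inhibitor Timp3 rose (log2 0.85, edgeR adjusted p = 0.00214). In CREX against EX muscle 3 of 13 fell and none rose.

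Marker lists of cells that make basement membranes were read beside these results. Of all genes, 6.86% fell under CR in BAT and 5.32% in muscle. In CREX against EX 2.63% and 5.17% fell. In BAT, 12 endothelial markers summed to 507.4 to 569.4 CPM in control and 377.3 to 483.1 CPM in CR mice. Of these, 1 of 12 was called lower, near the share of all genes. The 10 fibroblast markers summed to 323.3 to 402.4 and 188.9 to 232.3 CPM, with 5 of 10 called lower, and 10 pericyte and smooth muscle markers to 418.5 to 479 and 300.4 to 326.3 CPM, with 4 of 10 called lower. In muscle the endothelial sum was 376.4 to 451.8 CPM in control and 272.8 to 332.5 CPM in CR mice (3 of 12 called lower), and the fibroblast sum 384.4 to 505.1 and 265.9 to 344.1 CPM (4 of 10). Pericyte and smooth muscle markers overlapped in muscle, at 499.3 to 673.4 and 513.2 to 677.1 CPM (2 of 10). In trained mice the endothelial sums were 415.3 to 533.3 CPM in EX and 400.2 to 451.7 CPM in CREX BAT (0 of 12 called by edgeR or DESeq2). In that comparison 5 of 12 had an unadjusted edgeR p under 0.05, against 25.6% of all genes. Endothelial sums in muscle were 360.3 to 478.4 CPM in EX and 198.2 to 374.1 CPM in CREX mice (3 of 12 called lower). The fibroblast sums were 356 to 1433 CPM in EX and 221.2 to 243.9 CPM in CREX BAT. The 1433 CPM was that of EX replicate 3, against 399.9, 428.9 and 356 CPM in EX replicates 1, 2 and 4. All 10 markers had lower values in CREX BAT (median log2 -1), with 1 called by edgeR and 4 by DESeq2. An unadjusted edgeR p under 0.05 was held by 7 of 10, against 25.6% of all genes. Fibroblast sums in muscle were 346.2 to 545.6 CPM in EX and 289 to 338.7 CPM in CREX mice (4 of 10 called lower). The pericyte and smooth muscle sums were 395.5 to 452.1 CPM in EX and 293.5 to 352.3 CPM in CREX BAT, without overlap (2 of 10), and 562.1 to 673.5 and 468.2 to 670.4 CPM in muscle (1 of 10). The fibroblast list holds 3 fibrillar collagen genes, Col1a1, Col1a2 and Col3a1. Of the most abundant endothelial markers, Cdh5 differed by -0.47 in BAT under CR (edgeR adjusted p = 0.00593, under the fold minimum) and fell by 0.66 in muscle (log2 -0.66, edgeR adjusted p = 0.0162), while Pecam1 was at 75.1 ± 7.44 CPM in control and 68 ± 9.68 CPM in CR BAT (SD, n = 3 and 4). The 8 adipocyte markers summed to 15280 to 17040 CPM in control and 14130 to 14870 CPM in CR BAT (2 of 8 called lower). The 11 muscle fibre markers summed to 111700 to 123700 CPM in control and 132700 to 181500 CPM in CR muscle. Of these, 2 were called higher and 1 lower, where 4.27% of all genes rose and 5.32% fell. Neither sum overlapped between control and CR, and both overlapped between EX and CREX. The part of these cells, and of the higher muscle fibre sum, in the changes of the members was not tested.

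Across all libraries of a tissue, the gene whose log2 CPM was most like that of Col4a1 was Col4a2 (Pearson r 0.966 over 15 BAT and 0.991 over 14 muscle libraries), as a description over libraries that include the diet groups. Within groups, after each group mean was taken off, r of Col4a2 was 0.714 in BAT, next to 0.721 for Lama4 and 0.635 for Lamb1, and 0.96 in muscle, where Hspg2 followed with 0.744. Outside the members the nearest genes in BAT were Nrp2, Actn4, Tnfaip1, Trim2 and Gm32762 (r from 0.938 to 0.956). In muscle they were Wwtr1, Tnfrsf19, Ssu2, Col3a1 and Cd93 (r from 0.959 to 0.962). Among the members, Hspg2 (r 0.908) and Col15a1 (r 0.887) came next in BAT and Col15a1 (r 0.944) and Hspg2 (r 0.885) in muscle. Lamb1 had an r of -0.0565 over all BAT libraries, against 0.635 within groups, and 0.827 over all muscle libraries.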

How the data were processed

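RNA from each library was sequenced on a BGI platform as paired-end reads. According to the methods of the study, the authors trimmed the reads, aligned them with STAR to the mouse build mm10 (GRCm38) and quantified them with RSEM. The deposited table holds the expected counts that RSEM gave for each gene symbol, without any scaling. The annotation and strandedness are not given in the sources used here. Reads where the Col4a1 and Col4a2 exons overlap on opposite strands therefore cannot be told apart (22 bases in the annotation used here for exon lengths). The same holds where antisense genes overlap Lama2, Nid1, Col4a2 and Col15a1. Of the values, 6.11% were not whole, and all were rounded.

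edgeR 4.0.16 (robust quasi-likelihood, TMM, filterByExpr) under R 4.3.3 was fitted over all genes on the groups compared, with Benjamini-Hochberg adjustment over all genes tested. Genes were called at an adjusted p under 0.05 and a fold above 1.5, and interactions and tissue differences at an adjusted p under 0.05 alone. The TMM factors of CPM were computed within each tissue. Ratios (pseudocount of 0.5 counts) were compared with exact two-sided permutation tests. Intervals are 95% intervals of the fits. Depth was 21047242 to 24919377 counts per BAT library and 23050918 to 23425284 per muscle library. Cell marker scores are means of log2(CPM + 1). Alternatives were DESeq2 1.42.0, RLE size factors, no filter, a fit on all groups, no fold minimum, a replicate block, marker score covariates and each library left out. On simulated BAT CR and control libraries (13323 genes), edgeR called 94.5% of 200 genes changed 2-fold, and on simulated muscle CR and control libraries (13173 genes) 94%. The changed genes were drawn from those above a minimum level, with dispersions estimated from these data. Smaller changes, like those of several members, were not simulated.

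All 10 members are named. From each further list, up to 4 called genes with the smallest p per comparison, the paralogous chains and agrin, and the 5 genes nearest to Col4a1 per tissue could be named. The members and lists were chosen with earlier results of these data known. Samples were grouped by the treatment and tissue of their labels. Comparisons against a shared group use the same libraries. The labels do not say whether the libraries of a group came from separate mice, so p-values measure only the spread between these libraries, which may be technical. The table holds 27 symbols turned into dates, none of which is named here.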

Additional observations from a re-analysis of the deposited data

Results flagged for a closer look

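Over 70 groups of 4 libraries, the gap between the highest or lowest library and its nearest neighbour was compared with the range of the group, a check that flags about 1 in 20 groups by chance. It picked out 5 values. Col15a1 in BAT CR replicate 3 was at 6.59 CPM against 5.01 to 5.25 CPM in the other CR libraries, and so was nearest to the control libraries, which it did not reach. Lama4 in muscle control replicate 2 was at 14.3 CPM, under the 17.1 to 17.3 CPM of the others. Lamb1 in BAT CREX replicate 1 was at 109.9 CPM against 54.5 to 59.5 CPM. Hspg2 in BAT EX replicate 1 was at 130.3 CPM against 173 to 179.6 CPM. The log2 ratio of Col4a1 to Col4a2 was lowest in 1 muscle control library, at 0.29 against 0.34 to 0.35 in the others.

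The diet difference of Lama2 in sedentary mice differed between the tissues by -0.81 on the log2 scale (edgeR adjusted p = 0.0359), from -0.93 in BAT and -0.11 in muscle. This was 1 of 10 members, near the 7.58% of all genes called for the tissue difference. All 4 CR libraries of BAT were under all control libraries, while those of muscle overlapped. The call of the tissue difference was lost without any 1 of 10 of the 14 libraries. In trained mice the Lama2 difference between tissues was -0.45 and not called (edgeR adjusted p = 0.306).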

How the results depend on the processing

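In BAT, CREX against EX called 3 members, 5 with no fold minimum and 1 (Col15a1) without the libraries rich in muscle RNA. In muscle, CREX against EX called 3, but 1 (Col15a1) with the slow fibre score as a covariate and 1 without the libraries poor in slow fibre RNA, both settings that concern the same libraries. Leaving out each library gave 2 to 6 there, with 6 without CREX replicate 1. DESeq2 called 1 interaction in BAT (Col4a1), 2 tissue differences in sedentary mice and 1 in trained mice, where edgeR called 0, 1 and 0. Leaving out each library gave 0 to 2 for both tissue differences. The cause of these shifts was not tested. For the other comparisons the number of called members stayed within 1.5 times the reported number under every alternative run. Single values of members kept their status, called or not called, in 2862 of 2910 alternative fits. Most of these values were not called in the main fit, so this count says little about the calls themselves. Of the other fits, 25 lost a call and 23 gained one. The lost calls include muscle Hspg2 in CR (4 of 7 libraries left out) and the Lama2 tissue difference in sedentary mice (10 of 14). Groups share replicate numbers, but with 3 or more pairs no comparison had every same-numbered pair correlated above 0.1 in its deviations (mean r from -0.302 to 0.146). Single pairs reached r 0.497 in BAT CREX against EX and 0.361 in BAT CREX against CR. So few pairs cannot show whether same-numbered libraries shared a mouse, cage or batch. With a replicate block the number of called members was the same in every comparison (5 in BAT CR, 3 in BAT CREX, 4 in muscle CR and 3 in muscle CREX). Fits without libraries rich or poor in muscle markers were chosen after the scores were seen. Precision is limited by the 3 or 4 libraries per group.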
